A study of Danio rerio with 6 samples.

Results

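Respiratory complex I, the NADH:ubiquinone oxidoreductase, was followed through the transcripts of its nuclear genes in the tail fin of zebrafish larvae. Genes were taken by symbol, as every ndufa, ndufb, ndufc, ndufs or ndufv gene with a number in its name and the ndufab1 genes, which gave 41 of the 24923 genes in the table. The rule uses symbols and no measured value, though it was set with earlier results of these data known. Of the 41, 38 had enough reads to be tested, among 17309 tested genes in all, and 3 did not.

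Total RNA came from tail fins of larvae for which the labels name both the AB strain and the Tg(MPEG-GFP) line, with no statement of which was sequenced. Larvae were kept in 8 µM sunitinib, an inhibitor of receptor tyrosine kinases, or in 0.1% DMSO as vehicle from 2 days post-fertilization. All larvae had the fin amputated at 3 days and were collected 6 hours later in the same solution, and no uncut fin was analysed here. There were 3 biological replicates per group, each a pool from more than 60 larvae, sequenced as strand-specific paired-end libraries. A pool mixes all cells of the fin, so fewer cells of a type and less RNA per cell cannot be told apart.

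Complex I takes electrons from NADH in the mitochondrial matrix, passes them along flavin and iron-sulfur centres to ubiquinone, and pumps protons across the inner membrane. Its matrix arm carries the centres and its membrane arm carries the pumps. Core subunits do the chemistry, and accessory subunits surround them and are needed for assembly and stability. The pump subunits of the core are encoded in mitochondrial DNA and were not analysed here. Roles given here are those of the mammalian proteins. Muscle and other tissues with a high energy demand are rich in the complex.

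Depth ran from 13394060 to 15294706 estimated reads per library. DMSO replicate 1 stood furthest from the others over all genes, with chi-square values per degree of freedom between 35.2 and 60.8 in its 5 pairs, and between 8.60 and 24.6 in the 10 pairs of other libraries. Fast muscle markers had a summed level of 177745 normalized CPM, reads scaled to library size by TMM factors, in DMSO replicate 1 and 212724 to 274741 CPM in the other 5 libraries. Slow muscle markers summed to 4420 CPM in DMSO replicate 1 and 4176 to 4930 CPM in the other 5 libraries. Epidermis markers summed to between 25516 and 32463 CPM, so both skin and muscle transcripts were present in every library. Macrophage markers summed to 29.7 to 33.2 CPM.

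Nearly all complex I genes were well expressed. On the FPKM scale, which corrects for length and depth, the mean over 6 libraries ran from 32.0 for ndufv3 to 1360 for ndufa4l, with a median of 354 over the 38 genes. The 7 core genes had means of 131 to 387 FPKM. The order depends on the effective length, the number of positions at which a read pair can start. ndufa13, the counterpart of mammalian GRIM-19, came second at 1078 FPKM with an effective length of only 24 bases, but had the lowest read level of the 38 genes at 26.4 CPM. Its effective length was 26.7 bases in DMSO replicate 1 and 22.5 in Sunitinib replicate 1, so its place on the per-length scale rests on a few bases. The lowest genes after ndufv3 were ndufa3 at 70.0 FPKM and ndufa12 at 72.7 FPKM.

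**Figure D1:**
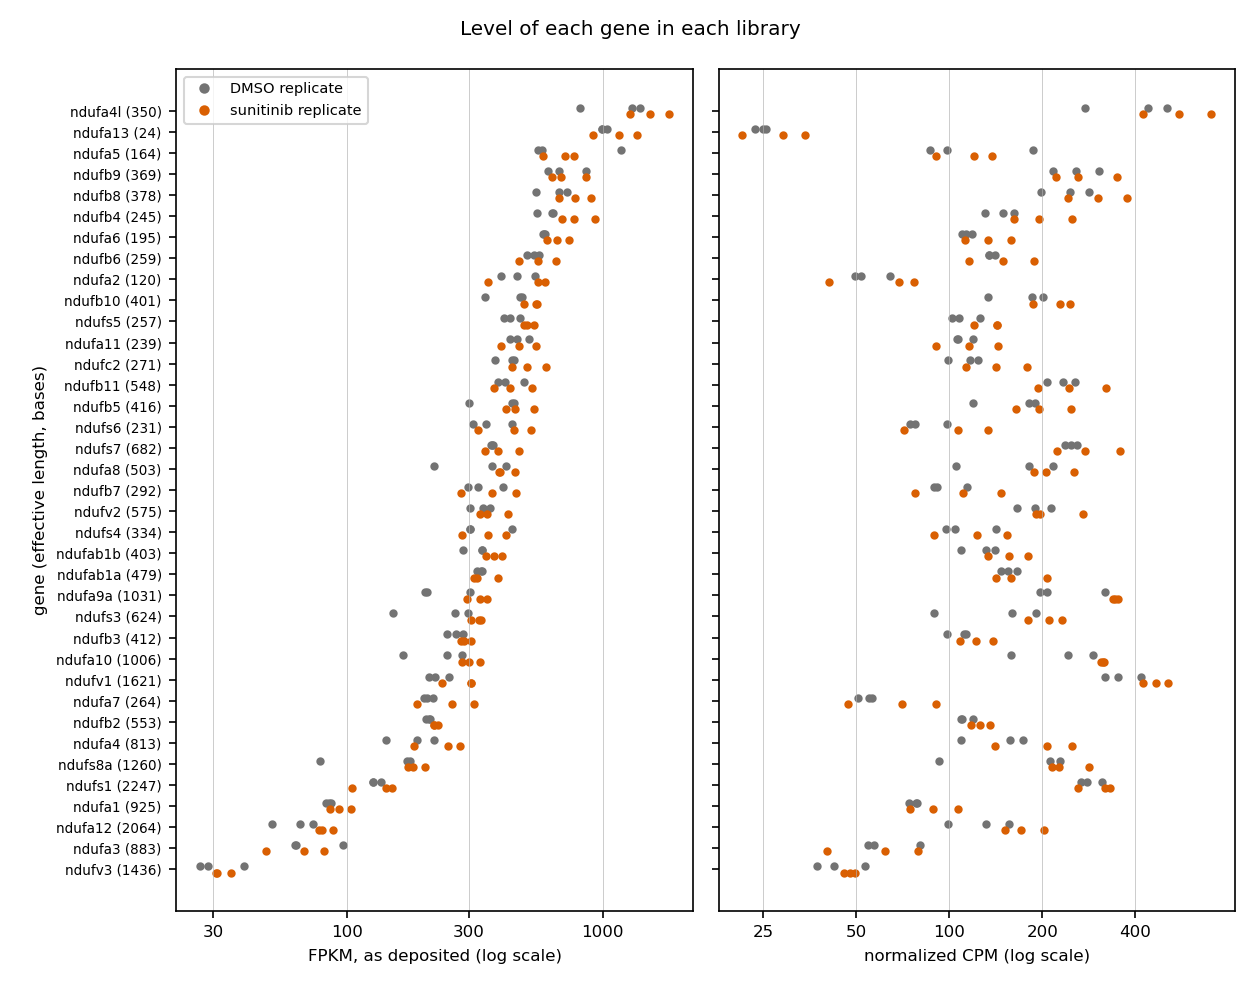
Each of the 37 rows is a tested gene with its effective length in bases, ordered by mean FPKM, and each point is a library. The left axis is FPKM and the right axis is normalized CPM, both on log scales, with DMSO replicates in grey and sunitinib replicates in orange. ndufa13 stands second on the left and lowest on the right, and the replicates of the groups overlap for most genes.

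The 3 untested genes were ndufs8b, ndufa4l2 and ndufa4l2a. ndufs8b, a second copy of the core gene ndufs8a, and ndufa4l2, a relative of ndufa4, were listed at 0 reads in all 6 libraries. A count of 0 allows up to 3 reads, or 0.224 CPM in the shallowest library, which covers counting error only. Reads shared between near-identical copies may have been assigned to the other copy. ndufa4l2 also had no entry in the RefSeq gene list, where 40 of the 41 genes had one. ndufa4l2a had 5.45, 3.64 and 3.30 estimated reads in the DMSO replicates and 3.04, 12.81 and 10.67 in the sunitinib replicates. The groups overlapped, and at this depth no difference could be read.

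The comparison of 3 sunitinib with 3 DMSO replicates asked whether complex I transcripts differed with the drug. In edgeR's quasi-likelihood test no complex I gene reached an adjusted p under 0.05 in either direction, and neither did any of the 17309 tested genes (0% higher and 0% lower). The smallest adjusted p of a complex I gene was 0.309. At an unadjusted p under 0.05 edgeR had 6 complex I genes higher with sunitinib, where 7.51% of all tested genes were higher, and 0 lower, where 6.12% were lower. Over the same genes DESeq2 had 10 complex I genes higher, where 5.97% of all were higher, and 0 lower, where 3.54% were lower, at the same unadjusted threshold. It had 0 complex I genes at an adjusted p under 0.05, where it called 0.307% of the genes for which it gave an adjusted p.

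Small positive fold changes were nonetheless widespread among the subunits. Of the 38 genes, 36 had a positive log2 fold change, sunitinib against DMSO, against 49.5% of all tested genes. Among tested genes of like length the share was higher, with 72.3% positive under 250 bases, 71.9% from 250 to 500 bases and 77.5% from 500 to 1000 bases, and 30 of the 38 genes lie in these ranges. The median of the 38 genes was 0.23, and the median over all tested genes was -0.0041. The range was narrow, from -0.09 for ndufa5 to 0.52 for ndufa9a. All sunitinib replicates lay above all DMSO replicates for 3 complex I genes (ndufa9a, ndufa10 and ndufv1), where 9.15% of all tested genes did so. They lay below for 0 complex I genes, where 10.8% of all tested genes did so.

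These counts leaned on single libraries. The 6 genes higher at an unadjusted p under 0.05 became 3, 12 and 2 without DMSO replicates 1, 2 and 3, and 3, 17 and 2 without Sunitinib replicates 1, 2 and 3, while the share of all tested genes ranged from 4.88% to 9.71%. The 3 genes with every sunitinib replicate above every DMSO replicate became 13 (34.2%) without DMSO replicate 2 and 24 (63.2%) without Sunitinib replicate 2. The shares of all tested genes that lay above were then 16.8% and 15.6%. Complex I genes above numbered 3 or 4 without any of the other 4 libraries, where 12.5% to 15% of all tested genes lay above. With each library left out 0 complex I genes lay below, where 14.3% to 19.2% of all tested genes did so. These shares rise for every gene when a group has fewer libraries. They cover genes of all lengths, while complex I genes are short. Counts of this kind with a library left out were not made with a trend on length removed. The median log2 fold change was 0.12 without Sunitinib replicate 1 and 0.36 without Sunitinib replicate 2.

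The core subunits of the matrix arm ranged from a log2 fold change of 0.08 for ndufs1 to 0.50 for ndufs3. The log2 fold change was above 0 for all 7 tested core genes, and their median was 0.21. ndufv1, which binds NADH and the flavin, stood at 319, 418 and 351 CPM in the DMSO replicates and at 424, 465 and 508 CPM with sunitinib. Every sunitinib replicate was above every DMSO replicate, though the lowest of the former and the highest of the latter were close, and the log2 fold change was 0.36 (SE 0.16, edgeR adjusted p = 0.354). Its iron-sulfur partner ndufv2 had 166, 213 and 189 CPM with DMSO and 270.4, 191 and 196 CPM with sunitinib, so only Sunitinib replicate 1 left the DMSO range. The log2 fold change of ndufv2 was 0.21 (SE 0.17, edgeR adjusted p = 0.584), and 0.035 without Sunitinib replicate 1.

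ndufs1, the core subunit with the most iron-sulfur centres, gave 268, 312 and 278 CPM with DMSO against 261, 319 and 330.2 CPM with sunitinib. The groups overlapped, and its log2 fold change of 0.08 (SE 0.15, edgeR adjusted p = 0.820) was the smallest of the core. ndufs3, at the base of the matrix arm, had 89.5, 191 and 160.0 CPM with DMSO and 231, 180.3 and 210.5 CPM with sunitinib. DMSO replicate 1 was far below the other 5 libraries, and the log2 fold change of 0.50 (SE 0.23, edgeR adjusted p = 0.364) had a leave-one-out range of 0.24 to 0.74, the lowest without DMSO replicate 1.

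Towards the ubiquinone site the pattern was uneven. ndufs7, which holds the last iron-sulfur centre before ubiquinone, had 237, 258 and 247 CPM with DMSO and 356, 223 and 274 CPM with sunitinib. The sunitinib replicates spanned the DMSO range on both sides, with a log2 fold change of 0.20 (SE 0.17, edgeR adjusted p = 0.605) that was 0.013 without Sunitinib replicate 1. ndufs8a, which relays electrons between centres, had 92.9, 229 and 211 CPM with DMSO and 283, 215 and 226 CPM with sunitinib. Its low value in DMSO replicate 1 set most of its log2 fold change of 0.44 (SE 0.26, edgeR adjusted p = 0.461), which was 0.13 without that library.

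Of the 9 accessory genes of the matrix arm 8 had positive values, with a median of 0.24, and ndufa9a had the smallest p of the 38 genes. ndufa9a, whose mammalian counterpart sits where the arms join, had 196, 319 and 206 CPM with DMSO and 338, 344 and 351 CPM with sunitinib. The sunitinib replicates were tight (SD 6.64 CPM, n = 3) and all above DMSO (SD 68.3 CPM, n = 3), with a log2 fold change of 0.52 (SE 0.19, edgeR adjusted p = 0.309). ndufa12, an accessory subunit added late in assembly, had 98.7, 156 and 132 CPM with DMSO and 202, 151 and 171 CPM with sunitinib. Sunitinib replicate 2 fell just inside the DMSO range, and the log2 fold change was 0.44 (SE 0.18, edgeR adjusted p = 0.338), or 0.28 without DMSO replicate 1.

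Others of this arm differed little or the other way. ndufa5 had 187, 98.1 and 86.8 CPM with DMSO and 138, 90.6 and 120.0 CPM with sunitinib, and its log2 fold change of -0.09 (SE 0.25, edgeR adjusted p = 0.885) was 0.33 without DMSO replicate 1, the highest library for this gene. ndufv3, a small subunit beside ndufv1 and ndufv2, had 53.5, 42.2 and 37.2 CPM with DMSO and 49.5, 47.7 and 45.6 CPM with sunitinib. All sunitinib values of ndufv3 lay within the DMSO range (log2 fold change 0.10, SE 0.15, edgeR adjusted p = 0.773). The other 5 genes of this role, ndufa2, ndufa6, ndufa7, ndufs4 and ndufs6, had log2 fold changes of 0.09 for ndufs4 to 0.36 for ndufa7.

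The 18 accessory genes of the membrane arm had a median log2 fold change of 0.21, and 17 were positive. ndufb4 had 131, 161 and 149 CPM with DMSO and 250.3, 161 and 195 CPM with sunitinib. Sunitinib replicates 1 and 3 were above all DMSO replicates and Sunitinib replicate 2 was level with DMSO replicate 2, with a log2 fold change of 0.46 (SE 0.17, edgeR adjusted p = 0.314) that was 0.28 without Sunitinib replicate 1. ndufa10, a subunit related to nucleoside kinases, had 158, 292 and 242 CPM with DMSO and 316, 314 and 310.2 CPM with sunitinib. The sunitinib values were nearly level and above all DMSO values, with a log2 fold change of 0.44 (SE 0.20, edgeR adjusted p = 0.355) that was 0.23 without DMSO replicate 1.

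At the low end of the membrane arm, ndufa3 had 80.4, 56.8 and 54.4 CPM with DMSO and 79.3, 40.1 and 61.9 CPM with sunitinib, and a log2 fold change of -0.08 (SE 0.22, edgeR adjusted p = 0.887). Its sunitinib replicates held both a value close to the DMSO maximum and the lowest of all 6. ndufa11 had 119, 107 and 106 CPM with DMSO and 143, 90.8 and 115 CPM with sunitinib, again on both sides of the DMSO range (log2 fold change 0.08, SE 0.17, edgeR adjusted p = 0.856). ndufa13 had 24.9, 25.5 and 23.5 CPM with DMSO and 34.0, 21.3 and 28.9 CPM with sunitinib, a log2 fold change of 0.19 (SE 0.17, edgeR adjusted p = 0.614) with a wider spread under sunitinib. The remaining 13 genes of the membrane arm ran from 0.10 for ndufb9 to 0.37 for ndufa8.

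Where zebrafish had several copies of a mammalian gene, the tested copies had the same sign. The mitochondrial acyl carrier protein, which serves both fatty acid synthesis and complex I, is encoded by ndufab1a and ndufab1b. ndufab1a had 147, 166 and 155 CPM with DMSO and 207, 142 and 159 CPM with sunitinib, with a log2 fold change of 0.12 (SE 0.16, edgeR adjusted p = 0.759). ndufab1b had 109, 140.3 and 132 CPM with DMSO and 179, 133 and 156 CPM with sunitinib, with a log2 fold change of 0.30 (SE 0.16, edgeR adjusted p = 0.417). The groups overlapped for both copies, and once the length trend was removed the signs parted, at -0.10 for ndufab1a and 0.10 for ndufab1b.

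The ndufa4 family takes its name from complex I, but mammalian NDUFA4 is now counted as a subunit of complex IV, cytochrome c oxidase. ndufa4 had 109, 157 and 174 CPM with DMSO and 250.2, 140.4 and 208 CPM with sunitinib. ndufa4l, the highest of the 38 genes by reads and by FPKM, had 274, 506 and 441 CPM with DMSO and 704, 424 and 552 CPM with sunitinib. In both, Sunitinib replicates 1 and 3 were above all DMSO replicates and Sunitinib replicate 2 was within them. The log2 fold changes were 0.44 for ndufa4 (SE 0.22, edgeR adjusted p = 0.384) and 0.46 for ndufa4l (SE 0.23, edgeR adjusted p = 0.399). Without DMSO replicate 1 they were 0.27 for ndufa4 and 0.24 for ndufa4l, and without Sunitinib replicate 1 they were 0.25 and 0.27. Leaving this family out, 34 of 36 genes were positive with a median of 0.22.

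**Figure D2:**
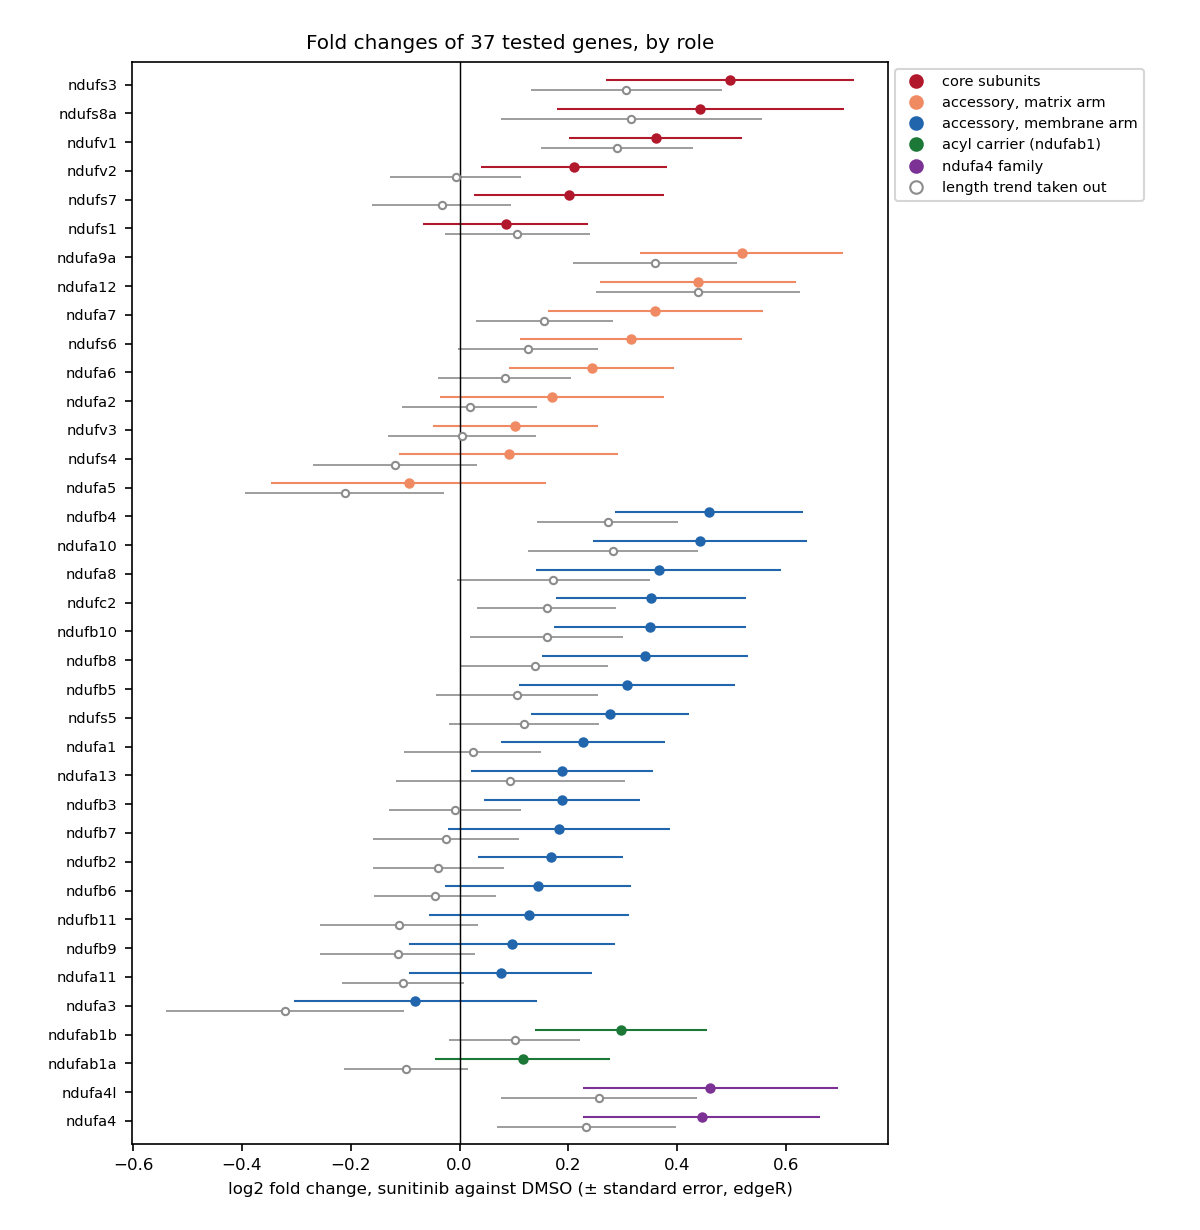
The horizontal axis is the log2 fold change, sunitinib against DMSO, with bars of ± 1 standard error from edgeR. Filled points are 37 tested genes coloured by role, and open points are the same genes with the trend on length taken out. Filled points lie right of 0 for 35 of them, and open points lie further left for most.

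The libraries did not divide cleanly by treatment. Sunitinib replicate 1 was the highest of the 6 libraries for 31 of 38 complex I genes (81.6%), where it was highest for 19.4% of all tested genes. The lowest library was DMSO replicate 1 for 17 genes (44.7%) and Sunitinib replicate 2 for 12 (31.6%). It was DMSO replicate 3 for 8 (21.1%) and Sunitinib replicate 1 for 1 (2.63%). Over all tested genes these shares were 25.2%, 15.8%, 16.4% and 17.6%, in that order. Summed over the 38 genes, the level was 5442, 6614 and 5880 CPM in the DMSO replicates and 8341, 6241 and 7276 CPM in the sunitinib replicates. Sunitinib replicates 1 and 3 were above the DMSO range and Sunitinib replicate 2 was inside it. For 24 genes (63.2%) Sunitinib replicates 1 and 3 were both above every DMSO replicate, where this held for 15.6% of all tested genes. Sunitinib replicate 2 was below the highest DMSO replicate for 33 genes. The share of all tested genes was not counted for the latter, so it is not read as a result for complex I.

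DMSO replicate 1 differed from its group in both directions, gene by gene. Its log2 ratio to the mean of the other 2 DMSO replicates ran from -1.24 for ndufs8a to 1.01 for ndufa5, and 11 genes were beyond 0.5 in either direction, 9 of them lower. Between DMSO replicates 2 and 3 the ratio was beyond 0.5 for 1 gene, ndufa9a at 0.63. Fast muscle markers were also low in DMSO replicate 1, with a median log2 deviation from the gene mean of -0.35, against 0.19 and 0.13 in the other DMSO replicates. Slow muscle markers were not low there, at 0.07 against 0.06 and -0.04. The share of the fast muscle difference in the complex I values was not tested.

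Fold changes in these libraries followed gene length, and complex I genes are short. Over all 17309 tested genes the Spearman correlation of log2 fold change with effective length was -0.40, a description over genes that share the same 6 libraries. The median effective length was 414 bases for the 38 complex I genes and 2052 bases for all tested genes. Genes of 500 to 1000 bases had a median log2 fold change of 0.23, those of 1000 to 2000 bases 0.10, those of 2000 to 4000 bases -0.08 and longer ones -0.15. Genes of 250 to 500 bases had a median of 0.19, where the 14 complex I genes of that length had 0.29, and genes under 250 bases had 0.14, where the 7 complex I genes had 0.19. From 500 to 1000 bases the 9 complex I genes had a median of 0.21, below the 0.23 of all genes, and from 1000 to 2000 bases the 6 had 0.40. Only 137 tested genes were under 250 bases, so the trend is thinly supported at the length of ndufa13.

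**Figure D3:**
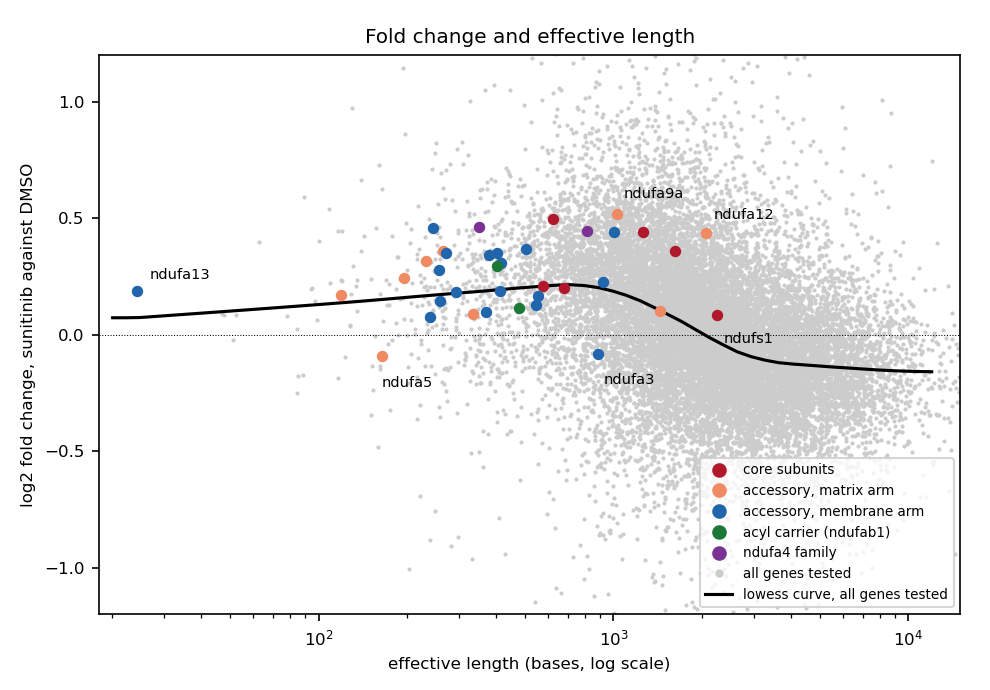
Each point is a tested gene, with effective length in bases on a log scale across and the log2 fold change, sunitinib against DMSO, upward. Complex I genes are coloured by role, all tested genes are grey and the line is a lowess curve through all tested genes. Most complex I genes sit in the short range where the curve is above 0, ndufa9a and ndufa12 sit above it, ndufa3 and ndufa5 sit below it, and genes outside the axes are not drawn.

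When the trend on length was taken out of each library, the shift in complex I genes shrank. This step also takes out any difference with the drug that follows length, and the source of the trend was not tested. The median log2 fold change became 0.10, against -0.00031 for all tested genes, and 25 of 38 genes were positive and 13 negative, where 49.9% of all tested genes were positive. The value moved towards 0 for 31 genes and changed sign for 11. At an unadjusted p under 0.05 edgeR had 2 genes higher, ndufa9a and ndufa12, where 5.7% of all tested genes were higher, and 0 lower, where 5.74% were lower. Again 0 genes had an adjusted p under 0.05, within complex I or among all tested genes (0%). Without DMSO replicates 1 and 2 the 2 genes became 1 and 7, where 5.81% and 7.63% of all tested genes were higher. Without DMSO replicate 3 or Sunitinib replicate 3 they became 0, where 4.91% and 3.54% of all tested genes were higher. The median was 0.04 without DMSO replicate 1 and 0.16 without DMSO replicate 2.

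With the trend taken out, the median log2 fold change was 0.11 for the core, 0.08 for the matrix arm accessory genes, 0.06 for those of the membrane arm, 0.0015 for the acyl carrier genes and 0.24 for the ndufa4 family, the last pair of values resting on 2 genes each, and differences between roles were not tested. ndufa12 was at 0.44 (SE 0.19, edgeR adjusted p = 0.409) where the curve is close to 0 at its length, and ndufa9a was at 0.36 (SE 0.15, edgeR adjusted p = 0.403). ndufs8a stood at 0.32 (SE 0.24, edgeR adjusted p = 0.631), ndufs3 at 0.31 (SE 0.18, edgeR adjusted p = 0.514), and ndufv1 at 0.29 (SE 0.14, edgeR adjusted p = 0.450). Without DMSO replicate 1 these values were 0.25 for ndufa12, 0.28 for ndufa9a, 0.015 for ndufs8a, 0.099 for ndufs3 and 0.18 for ndufv1. ndufv2 at -0.01 and ndufs7 at -0.03 were left near 0, while ndufa3 was at -0.32 (SE 0.22, edgeR adjusted p = 0.587). The groups did not overlap for ndufv1 and ndufb4, with sunitinib above, and for ndufa11 and ndufb6, with sunitinib below, where 8.27% of all tested genes were above and 9.17% below. ndufb4 was at 0.27 (SE 0.13, edgeR adjusted p = 0.445). The values below were small, at -0.10 for ndufa11 (SE 0.11, edgeR adjusted p = 0.739) and -0.04 for ndufb6 (SE 0.11, edgeR adjusted p = 0.904). For ndufb6 the lowest DMSO and highest sunitinib log2 deviations nearly met, at 0.0070 and 0.0045.

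Within the 38 genes the Spearman correlation of log2 fold change with effective length was 0.16, and 0.29 with the trend taken out. Large values also occurred in shorter genes, such as ndufs3 at 0.50 (624 bases) and ndufa4l at 0.46 (350 bases). Among the complex I genes 8 had at least 1000 bases. They included ndufa9a at 0.52, ndufa12 at 0.44 and ndufv1 at 0.36, but also ndufv3 at 0.10 and ndufs1 at 0.08. This subset was chosen after the values were seen and so is given without a test. The log2 fold change was positive for all 8, and the median was 0.40 where all tested genes of at least 1000 bases had -0.04. That wider set also holds genes longer than any of the 8, of which the longest had 2247 bases. From 1000 to 2000 bases, where 6 of the 8 lie, all tested genes had a median of 0.10 and 62.9% were positive. Once the trend was removed the median of the 8 was 0.29, and it was 0.17 without DMSO replicate 1. The number of positive genes among the 8 was 6 to 8 when each library was left out in turn.

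Library by library, the high values of Sunitinib replicate 1 shrank most when the trend was taken out. The median log2 deviation of the 38 genes from their gene means was -0.14, -0.03 and -0.14 in the DMSO replicates and 0.40, -0.13 and 0.16 in the sunitinib replicates. Taking out the trend made these -0.13, 0.04 and -0.05 with DMSO and 0.07, 0.01 and 0.08 with sunitinib. Sunitinib replicate 1 was then the highest library for 10 of the 38 genes (26.3%), where it was highest for 16.3% of all tested genes. DMSO replicate 1 was highest for 11 (28.9%), close to its 26.1% of all tested genes. DMSO replicate 1 was the lowest library for 17 genes (44.7%) on each scale, which need not be the same genes. It was lowest for 25.2% of all tested genes with the trend left in and 26.7% with it taken out. The median of DMSO replicate 2 lay above that of Sunitinib replicate 2 on both scales.

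**Figure D4:**
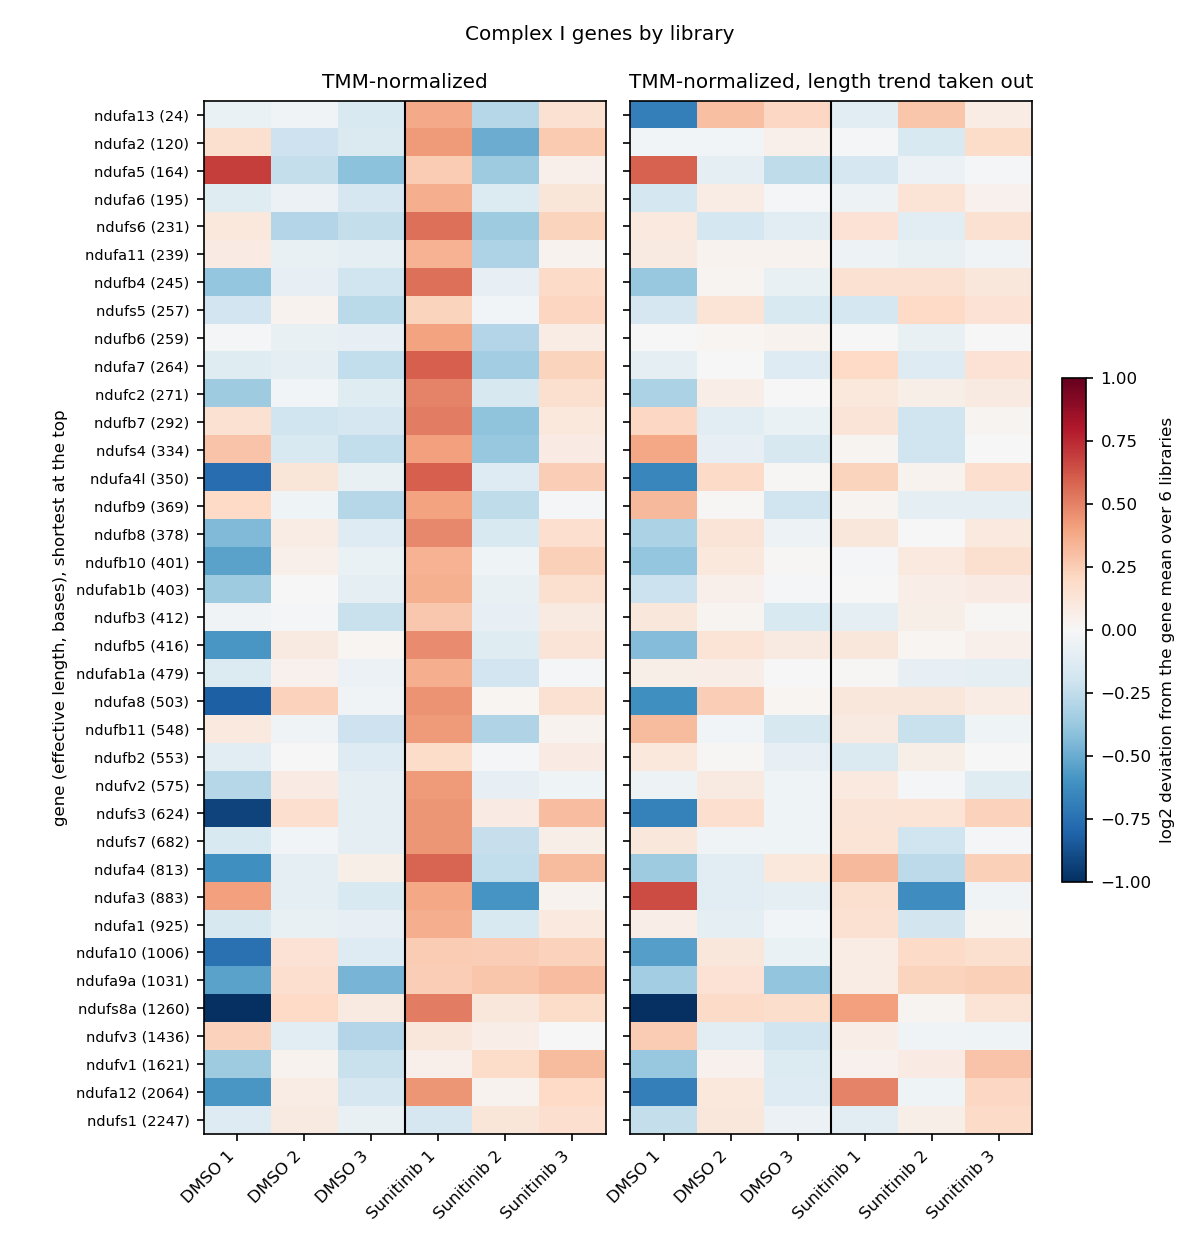
Rows are 37 tested genes from the shortest at the top to the longest, columns are the 6 libraries, and colour is the log2 deviation from the gene mean, with values beyond the ends of the scale drawn at its ends. The left map is TMM-normalized and the right map has the length trend taken out. Sunitinib replicate 1 is red nearly throughout on the left and pale on the right, while DMSO replicate 1 keeps strong values of both signs, ndufs8a lowest and ndufa5 and ndufa3 high.

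Assembly factors of complex I, which build the complex without staying in it, had mostly positive values too. The log2 fold change was above 0 for 15 of 18 tested, and their median was 0.32. In edgeR an unadjusted p under 0.05 was reached upward by 5, where 7.51% of all tested genes did so, and downward by 0, where 6.12% did so. An adjusted p under 0.05 was reached by 0 in edgeR and 0 in DESeq2, where the shares of all genes were 0% and 0.307%. ndufaf2 had a log2 fold change of 0.69 (SE 0.20, edgeR adjusted p = 0.288) and timmdc1 0.41 (SE 0.14, edgeR adjusted p = 0.305). With the trend taken out, 13 were positive and the median was 0.15. In that fit 1 gene reached an unadjusted p under 0.05, upward, where 5.7% of all tested genes did so.

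The other respiratory complexes had medians close to that of complex I. Positive log2 fold changes were found for 4 of 4 tested complex II genes (median 0.18), 10 of 10 complex III genes (0.20), 18 of 20 complex IV genes (0.23) and 13 of 18 ATP synthase genes (0.24). With the trend taken out those medians were 0.05, 0.05, 0.04 and 0.05. Mitochondrial ribosomal protein genes, 65 of 74 positive, had a median of 0.25 that became 0.06. Cytosolic ribosomal protein genes were shorter, with a median effective length of 281 bases against 640 for the mitochondrial ribosomal protein genes. Of the cytosolic genes 54 of 78 were positive with a median of 0.08, which became -0.08 with the trend taken out. In edgeR 2 complex III, 4 complex IV, 1 ATP synthase and 8 mitochondrial ribosomal protein genes were higher at an unadjusted p under 0.05. No others of these lists were higher and 0 were lower, where the shares of all tested genes were 7.51% and 6.12%. With the trend taken out these were 0, 1, 1 and 2 higher, where 5.7% of all tested genes were. Then 3 mitochondrial and 6 cytosolic ribosomal protein genes were lower, where 5.74% of all were. Regulators of mitochondrial biogenesis had a median of 0.03 over 16 genes. At an unadjusted p under 0.05 in edgeR 2 of them were lower, where 6.12% of all tested genes were, and 0 higher, where 7.51% were. The 2 lower genes were pprc1 at -0.44 (SE 0.16, edgeR adjusted p = 0.307) and polrmt at -0.37 (SE 0.16, edgeR adjusted p = 0.339). The list's median was 0.07 on removal of the trend, pprc1 was at -0.32, and polrmt was at -0.24 and no longer under an unadjusted p of 0.05. In edgeR no gene of these lists reached an adjusted p under 0.05, and the differences between lists were not tested.

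With the length trend left in, markers of muscle and of ionocytes had medians near or below 0. The 18 fast muscle markers had a median log2 fold change of 0.0030, with 9 positive and 9 negative, the 9 slow muscle markers -0.14 and the 7 ionocyte markers -0.12. Among other cell types, the medians were 0.18 for 12 epidermis markers, -0.21 for 6 notochord markers, 0.08 for 7 erythrocyte markers, -0.13 for 5 macrophage markers, -0.04 for 5 neutrophil markers and 0.03 for 6 neuron markers. Epidermis markers summed to 28663, 25516 and 26839 CPM with DMSO and to 32463, 32250 and 28554 CPM with sunitinib and the groups overlapped only at DMSO replicate 1 and Sunitinib replicate 3. With the trend taken out, fast muscle markers had a median of 0.08, with 11 positive and 7 negative. The complex I genes had 0.10 on that scale. Epidermis markers then had 0.15, slow muscle -0.16, ionocyte -0.09 and notochord markers -0.14. Erythrocyte markers had 0.01, macrophage -0.08, neutrophil -0.27 and neuron markers -0.03. The part of cell composition in the complex I values was not tested.

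**Figure D5:**
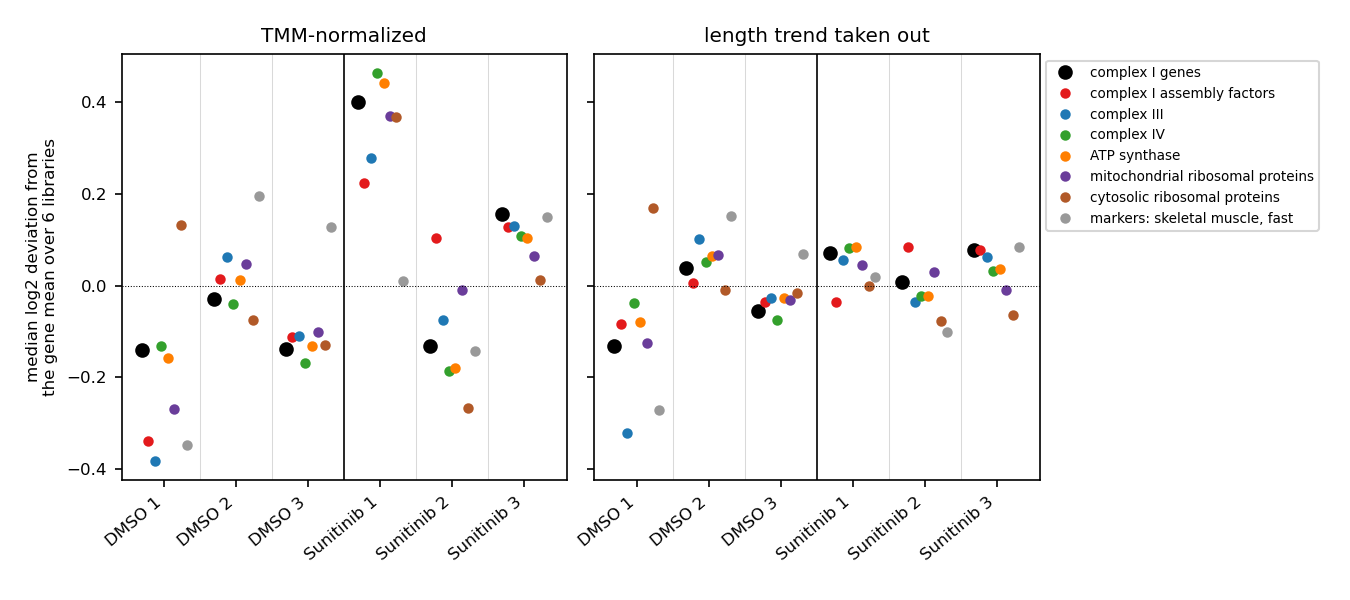
Each point is the median log2 deviation from the gene mean over the tested genes of a list in a library, with the 6 libraries across and the lists in colour. The left panel is TMM-normalized and the right panel has the length trend taken out. On the left complex I genes reach 0.40 in Sunitinib replicate 1 together with the other respiratory and ribosomal lists, and on the right they lie between -0.13 and 0.08 in all libraries.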

How the data were processed

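RNA of 6 zebrafish tail fin libraries was grouped by the labels. After filtering, reads were aligned by the authors to GRCz11 and quantified per gene. For the aligner, the counter and the annotation, names and versions were not given in the sources used here. Estimated counts, without normalization, were deposited for each gene and library. Beside them the authors deposited FPKM and TPM, scaled for length and depth. A further deposited signal, the normalized read count, equals the count after rounding up over a factor for each library. The authors' group averages were not used. Effective lengths were derived from the counts and FPKM.

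Estimated counts were rounded to whole numbers and tested across all genes with edgeR 4.0.16 in R 4.3.3 (TMM, filterByExpr, quasi-likelihood F-test, Benjamini-Hochberg, threshold 0.05). Values in CPM use the same factors. The biological coefficient of variation was 0.153. The length trend was a lowess curve (span 0.3) of each library's log2 deviation on log2 effective length, entered as an offset. DESeq2 1.42.0, limma 3.58.1 on log2(FPKM + 1), other scaling factors, filters and spans, and each library left out were alternatives. Scripts were tested on simulated data. No sequence or coordinate is printed.

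The genes given with values in every replicate were the core genes, the 6 smallest p, the 2 highest and 2 lowest by FPKM, the longest and shortest, the 3 lowest fold changes, duplicated genes and the ndufa4 family. The values of 1 tested gene are not reported here and it is not drawn, but it is included in the counts and medians. From each other list at most 2 genes with the smallest p were named. ndufb6, and ndufa8, ndufb9, ndufs4 and ndufa7 as ends of ranges, were named after their values were seen. The members and lists were chosen with earlier results of these data known. List symbols were matched by symbol, then synonym, and 7 were not matched. Deviations of same-numbered libraries from their group means correlated at -0.17, -0.10 and 0.02, so the numbers were not taken to pair samples.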

Additional observations from a re-analysis of the deposited data

How the results depend on the processing

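The direction of the complex I median held under every alternative run. No complex I gene had an adjusted call under any alternative with the length trend left in. With the trend taken out, no tested gene was called except without DMSO replicates 1 and 2, where 23 and 2 of all tested genes were called. How many of those were complex I genes was not counted. Of the 19 genes given with every replicate, 18 kept the sign of the fold change in every alternative other than leaving out a replicate, with the length trend left in. The 6 genes higher at an unadjusted p under 0.05 were 3 with the replicate block and 10 with DESeq2, where 5.69% and 5.97% of all tested genes were higher. They were 3 with limma on log2(FPKM + 1), on log2(FPKM + 0.1) or with no filter on low values. The shares of all tested genes were then 5.64%, 5.59% and 4.38%. With each replicate left out they were 2 to 17, where 4.88% to 9.71% of all tested genes were higher. With the length trend taken out, 2 genes became 4 when a trend on mean level was also removed and 1 with the replicate block. The shares of all tested genes were then 5.62% and 4.88%. With each replicate left out the 2 genes became 0 to 7, where the share was 3.54% to 7.63%. The 3 genes with sunitinib above DMSO in all replicates became 5 with upper-quartile factors, 9 in FPKM and 6 in TPM. Shares of all tested genes were not counted on those scales, so these counts are not read as a result for complex I. With each replicate left out, a setting chosen after seeing the data, the 3 genes became 3 to 24. The share of all tested genes was then 12.5% to 16.8%. The 0 genes below became 2 with the length trend taken out, where 9.17% of all tested genes lay below. Medians of 0.12 to 0.36, and of 0.045 to 0.16 with the trend taken out, were found with each replicate left out, beside a pooled replicate SD of the median deviation of 0.194 and 0.0665. Positive genes then numbered 29 to 39, and 24 to 31 with the trend taken out, where 38 or 39 complex I genes passed the filter.

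The fold change of ndufa11 turned to -0.0019 with limma on FPKM in all 3 settings. Leaving out each replicate turned the log2 fold change of ndufa3 (-0.32 to 0.15), ndufa5 (-0.30 to 0.33), ndufv3 (-0.0087 to 0.26), ndufab1a (-0.050 to 0.23) and ndufa11 (-0.095 to 0.23). With the trend taken out it turned that of ndufs7 (-0.12 to 0.055), ndufa13 (-0.19 to 0.28), ndufa5 (-0.37 to 0.084), ndufv2 (-0.062 to 0.048) and ndufv3 (-0.086 to 0.15). Of the 18 other tested genes reported, 6 turned when a replicate was left out and 10 did so with the trend taken out. Settings other than leaving out a replicate turned, once the trend was removed, 2 of the 19 genes (ndufa13 and ndufv3) and 2 of the 18. Where a group had 2 libraries left, edgeR shared the estimate of spread across groups. The same-numbered libraries share only a number. At this depth and with 3 replicates a group, the largest log2 fold change of a complex I gene, 0.52, was not called.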
